A study of Mus musculus with 10 samples.

Results

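The 7 arrays of polarised T helper cells, 3 of Th2 and 4 of Th17 cultures, were set against the 3 arrays of Th0 cultures, and so took in all 10 arrays of the mRNA data analysed here. The question was what Th2 and Th17 cultures shared in direction against Th0. Each array was placed in its group by its label alone, not by any measured value. The cells came from spleens of Balb/c mice, which were female, of genotype WT and 10 to 14 weeks old, and CD4-positive lymphocytes were isolated with a kit from Miltenyi. Every culture, the control included, received antibodies against CD3 at 4 µg/ml and CD28 at 30 ng/ml, a stand-in for antigen and costimulation. To this Th2 cultures added IL-4 at 100 ng/ml. Th17 cultures added IL-6 at 20 ng/ml, IL-23 at 10 ng/ml and TGFβ at 5 ng/ml. Both polarised groups received an antibody against IFNγ at 10 µg/ml, and Th0 cultures received neither that antibody nor a cytokine. The antibody was always given together with cytokines, so its effect and theirs cannot be told apart. Medium was renewed at 72 h, and the labels state no harvest time.

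Interferon gamma is the signature cytokine of Th1 cells, and stimulated CD4 cells secrete it into their own medium. It binds a receptor that signals through the kinases JAK1 and JAK2 and turns on Irf1, immunoproteasome subunits, guanylate-binding proteins and the Th1 regulator Tbx21. Interferon gamma also holds back the Th2 and Th17 fates, so an antibody that captures it is a usual part of both polarising media. Such an antibody removes the secreted protein and leaves the gene and its transcript in place.

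Values are log2 expression of 22180 genes, each measured by the brightest of its probe sets, so a difference of 1 is a 2-fold difference. A difference is the mean of the Th2 and Th17 group means minus the Th0 mean, with the standard error (SE) of the limma fit, and p-values were adjusted over all genes by the Benjamini-Hochberg method. The replicates are titled biological, without a statement that each came from its own animal, so a p-value measures only how these samples spread. The number of arrays limits the precision. Transcripts of T cells were present throughout: the mean of 7 T cell markers lay between 8.77 and 9.92 on every array. Arrays of a group were not alike. Th2 replicates 2 and 3 and Th17 replicate 4 stood apart on the first principal component, which held 35.8% of the variance, and are called here the 3 arrays apart. Without them Th2 replicate 1 was the only Th2 array left, and it alone carried the weight of that group. It was the Th2 array most like Th0 in many genes. This setting therefore cannot separate the part of the 3 arrays from that of the Th2 array kept. Of the 112 genes recomputed under each alternative, 55 had a difference that shrank by over 1.5 times or changed sign without the 3 arrays apart. In 2 genes it grew by over 1.5 times. Th0 replicate 1 and Th17 replicates 2 and 3 carried the most transcript of basophil and mast cell markers, with list means from 5.54 to 6.33 against 3.17 to 3.78 on the other arrays.

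2 genes rose in the polarised cultures and none fell at an adjusted p under 0.05. They made up 0.00902% of the genes tested. The smallest adjusted p among lower genes was 0.528. At an unadjusted p under 0.05 there were 1232 genes (5.55%), 581 higher (2.62%) and 651 lower (2.94%), where 1109 would make up 5% of those tested. A gene was said not to overlap where all 7 polarised arrays lay above, or all below, the 3 Th0 arrays. This held for 365 genes (1.65%), 188 above (0.848%) and 177 below (0.798%). Of them 249 had a mean over the arrays under 5, in the weak part of the scale, and 286 had an unadjusted p under 0.05. Fewer arrays overlap less by construction: the count was 1113, 1271 and 1171 without Th0 replicate 1, 2 or 3, 850 without Th2 replicate 1 and 580 without Th2 replicate 3. In bulk RNA of this kind, fewer cells of a type and less RNA per cell cannot be told apart.

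Cpd (carboxypeptidase D, a membrane enzyme that trims arginine and lysine from the ends of proteins) rose in the polarised cultures. It was at 6.37, 5.98 and 6.80 on the Th0 arrays, at 7.10, 7.99 and 7.77 on the Th2 arrays and at 9.14, 9.14, 8.78 and 9.56 on the Th17 arrays. All polarised arrays were above all Th0 arrays, and all Th17 arrays were above all Th2 arrays. The difference was 2.00 ± 0.24 (SE), or 4.00-fold (limma, adjusted p = 0.0493). Its parts were 1.23 for Th2 and 2.77 for Th17, and the Th17 minus Th2 difference of 1.54 had an adjusted p of 0.086 in limma.

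Il17f (an interleukin 17 cytokine made by Th17 cells) rose too, but not through both groups alike. It was at 5.59, 5.68 and 4.98 in Th0, at 5.48, 6.53 and 6.66 in Th2 and at 10.94, 10.21, 9.55 and 10.34 in Th17. Th2 replicate 1 lay within the range of the Th0 arrays and the Th17 arrays lay far above both other groups. The pooled difference of 2.83 ± 0.32 (SE; limma, adjusted p = 0.0493) averaged 0.81 for Th2 and 4.85 for Th17, and Th17 exceeded Th2 by 4.04 (limma, adjusted p = 0.0032).

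Both calls were close to the threshold. Leaving out Th0 replicate 1, Th0 replicate 3, Th2 replicate 2, Th2 replicate 3, Th17 replicate 1, Th17 replicate 2 or Th17 replicate 4 left 0 genes called. Without Th17 replicate 3 the call was Il17f alone, and without Th0 replicate 2 it was Car1 alone, a lower gene (Car1, a carbonic anhydrase, is named because it was that call). Without Th2 replicate 1, the Th2 array most like Th0 in many of the genes below, 40 genes were called, 16 higher and 24 lower. Among these 40 were Cpd, Il17f and, of the genes described below, Kctd6, Rny3, Sgk1, Jun, Tnf, Cd69, Trp53inp1, Ccnb2, P2rx7, Itm2a, Epas1 and Tnfrsf18. Without the 3 arrays apart, 1 gene was called, Kcnma1 (a potassium channel, named for that), and the differences of Cpd and Il17f were 1.67 and 2.44 (limma, adjusted p = 0.235 for each).

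**Figure D1:**
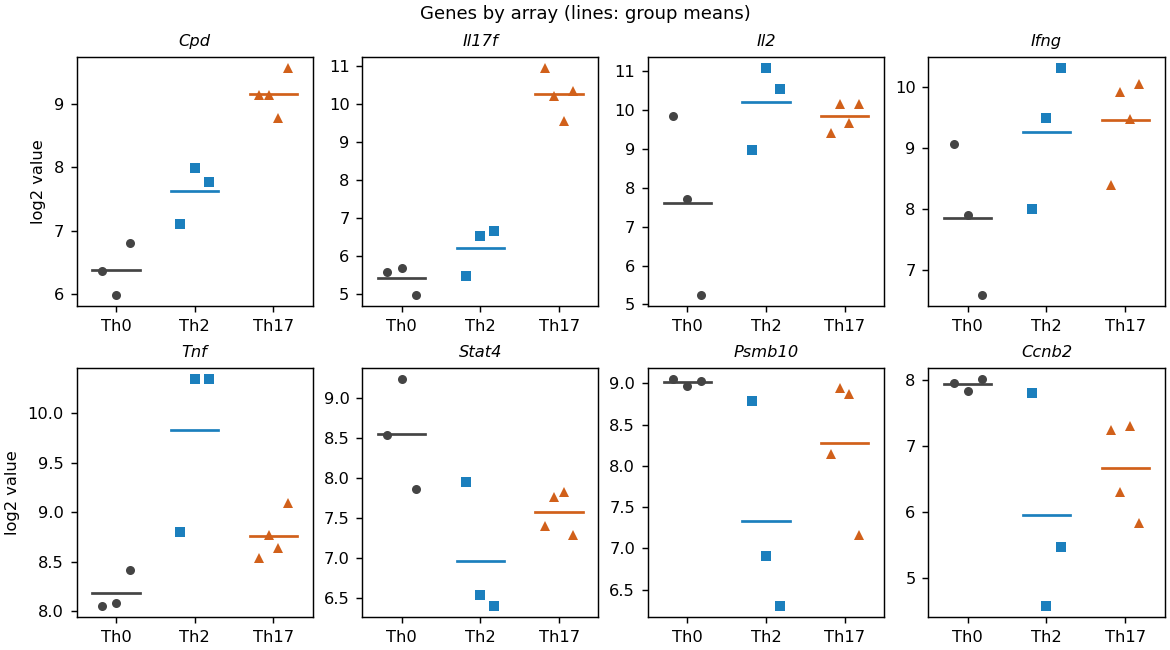
Log2 values of 8 genes on each array of Th0 (n = 3), Th2 (n = 3) and Th17 cultures (n = 4), with lines at the group means; each panel has its own vertical scale, which does not start at 0. The 7 polarised arrays lie above the 3 Th0 arrays in Cpd and Tnf and below them in Psmb10 and Ccnb2, while Il17f, Il2, Ifng and Stat4 overlap.

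The shared genes described next are the 12 per direction with the largest smaller difference, meaning the smaller in size of Th2 minus Th0 and Th17 minus Th0. They were taken from genes that did not overlap and had a group mean of at least 5. Both differences subtract the same 3 Th0 arrays, and the choice by lack of overlap fixes the direction, so the values are a description. Among the higher genes the last taken was Frmd6 at 0.785 and the first left out Flvcr1 at 0.775. Among the lower genes these were Cenpf at 0.82 and Snrnp25 at 0.77. Each of the 24 genes had 1 probe set. None but Cpd had an adjusted p under 0.05.

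Among the 12 higher genes, Mmp13 (collagenase 3, which cuts collagen) showed the widest spread. It was at 3.75, 2.99 and 3.59 in Th0, at 4.91, 6.54 and 5.35 in Th2 and at 4.34, 5.66, 4.37 and 8.66 in Th17. The highest value, on Th17 replicate 4, was over 2 log2 units above the next, and the difference was 2.23 ± 0.79 (SE; limma, adjusted p = 0.876). Without the 3 arrays apart the difference of Mmp13 was 1.40.

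3 further higher genes code for membrane proteins. Trpm6 (a magnesium channel joined to a kinase) was at 4.20, 3.81 and 3.83 in Th0, at 5.20, 6.08 and 4.61 in Th2 and at 6.21, 5.78, 5.05 and 6.25 in Th17, a difference of 1.61 ± 0.32 (SE; limma, adjusted p = 0.528). Piezo1 (a channel opened by mechanical force) was at 5.93, 6.19 and 5.96 in Th0 and at 6.40 to 7.49 in the polarised cultures, with differences of 0.97 for Th2 and 0.86 for Th17. Aplp2 (a membrane protein related to the amyloid precursor) differed by 1.01 for Th2 and 1.25 for Th17.

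The remaining higher genes included an adaptor, a microtubule protein and a repressor. Kctd6 (an adaptor of ubiquitin ligases) was at 4.40, 4.72 and 4.46 in Th0, at 5.18, 5.53 and 5.66 in Th2 and at 5.48, 5.26, 5.23 and 5.67 in Th17. The polarised groups were level with each other and the difference was 0.91 ± 0.16 (SE; limma, adjusted p = 0.429, and 0.0408 without Th2 replicate 1). Camsap2 (a protein that caps the minus ends of microtubules) was at 5.22, 5.84 and 5.43 in Th0, at 6.18, 6.66 and 6.15 in Th2 and at 6.53, 6.61, 6.55 and 6.58 in Th17, a difference of 0.96 ± 0.16 (SE; limma, adjusted p = 0.429). The 4 Th17 arrays of Camsap2 had an SD of 0.03. Etv3 (a transcriptional repressor of the ETS family) was at 3.86, 4.38 and 5.27 in Th0 and at 5.30 to 5.80 in the polarised cultures, a difference of 1.06. Plekha1 (which binds a phosphoinositide lipid) differed by 0.90, Prkx (a cyclic AMP-dependent kinase) by 0.87, Sgpl1 (sphingosine-1-phosphate lyase) by 0.84 and Frmd6 (a FERM domain protein) by 0.80. In 7 of the 12 genes the Th17 difference was the larger. No gene of the 12 differed between Th17 and Th2 at an adjusted p under 0.05 in limma, where the smallest value was 0.086, for Cpd.

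**Figure D2:**
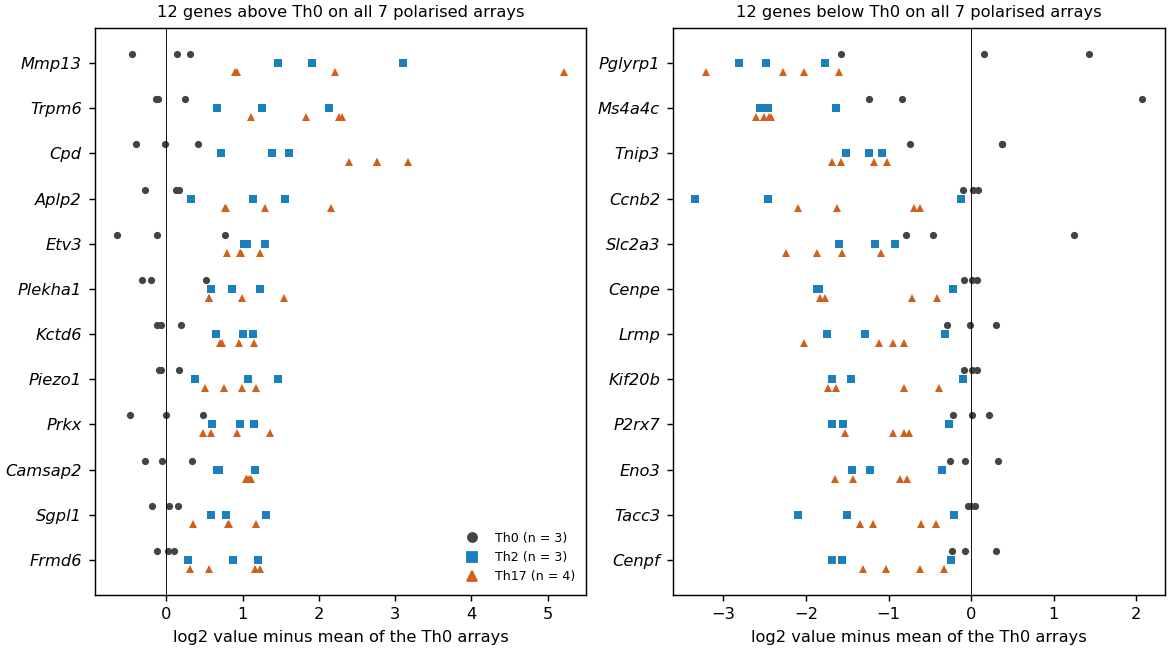
Log2 value of each gene on each array minus the mean of the 3 Th0 arrays, for the 12 shared higher (left) and 12 shared lower genes (right). All 7 polarised arrays (squares, Th2; triangles, Th17) lie on 1 side of the Th0 arrays (circles), as the choice of genes requires; with each array centred on its median this held for 9 of the higher and 4 of the lower genes.

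5 of the 12 lower genes belong to the machinery of mitosis. Ccnb2 codes for cyclin B2, Cenpe and Cenpf for kinetochore proteins, Kif20b for a mitotic kinesin and Tacc3 for a spindle protein. Promoters of such genes often carry CCAAT boxes together with a cell cycle homology region whose core reads TTTGAA. The RefSeq promoters of 3 of them, the 3 that hold that core, are shown because these genes were low together. Each line runs from 250 bases before to 30 bases after the annotated start (GRCm38.p6; Ccnb2 chr9:70421525-70421804, minus strand; Cenpf chr1:189688057-189688336, minus strand; Kif20b chr19:34922108-34922387, plus strand). Capitals mark TTTGAA or CCAAT on either strand.

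Ccnb2: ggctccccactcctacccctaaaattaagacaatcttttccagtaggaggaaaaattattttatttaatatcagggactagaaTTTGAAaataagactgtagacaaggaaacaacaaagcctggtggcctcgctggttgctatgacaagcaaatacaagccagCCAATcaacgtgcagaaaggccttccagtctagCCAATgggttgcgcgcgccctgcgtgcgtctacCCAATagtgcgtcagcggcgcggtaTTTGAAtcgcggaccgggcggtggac
Cenpf: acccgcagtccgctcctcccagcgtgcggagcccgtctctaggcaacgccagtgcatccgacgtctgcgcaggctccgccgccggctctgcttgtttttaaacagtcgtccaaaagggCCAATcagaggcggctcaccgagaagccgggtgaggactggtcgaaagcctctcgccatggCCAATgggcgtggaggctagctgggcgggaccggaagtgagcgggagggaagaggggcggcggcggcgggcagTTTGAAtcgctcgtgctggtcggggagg
Kif20b: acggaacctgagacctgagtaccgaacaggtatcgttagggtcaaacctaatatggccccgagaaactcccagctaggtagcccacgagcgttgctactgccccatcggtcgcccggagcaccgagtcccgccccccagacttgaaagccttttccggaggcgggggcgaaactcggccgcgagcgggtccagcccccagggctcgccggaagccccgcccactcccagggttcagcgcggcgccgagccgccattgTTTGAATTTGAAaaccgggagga

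Ccnb2 held 2 TTTGAA and 3 CCAAT, Cenpf held 1 and 2, and Kif20b held 2 TTTGAA side by side and no CCAAT. Over the whole windows of 300 bases, TTTGAA stood in 15 of 38 cell cycle genes that had a window (39.5%) and in 17.8% of the 16990 measured genes with one. CCAAT stood in 29 of the 38 (76.3%) and in 41.6% of measured genes. All 15 cell cycle promoters with TTTGAA also held CCAAT, as did 1212 of the 3019 measured genes with TTTGAA. Over all windows the pairing stood in 39.5% of the 38 and in 7.13% of measured genes. Kif20b is not a member of the cell cycle list. Both motifs were searched on both strands and were chosen after the expression values were known. A match describes the letters, not binding.

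The values of the mitotic genes were scattered on the polarised arrays. Ccnb2 was at 7.95, 7.83 and 8.01 in Th0, at 7.80, 4.59 and 5.47 in Th2 and at 7.24, 6.30, 7.30 and 5.83 in Th17. Th2 replicate 1 came within 0.028 of the lowest Th0 array, while the 3 arrays apart were the lowest. The difference of Ccnb2 was -1.62 ± 0.57 (SE; limma, adjusted p = 0.876, and 0.0462 without Th2 replicate 1). Kif20b was at 7.19, 7.04 and 7.13 in Th0, at 7.02, 5.66 and 5.44 in Th2 and at 6.72, 5.48, 6.31 and 5.39 in Th17. Cenpf was at 6.11, 6.65 and 6.28 in Th0, at 6.10, 4.66 and 4.79 in Th2 and at 6.02, 5.32, 5.72 and 5.04 in Th17. In both, Th2 replicate 1 lay beside Th0 and the 3 arrays apart were low, as was Th17 replicate 2 in Kif20b. Cenpe differed by -1.24, Kif20b by -1.11, Tacc3 by -1.08 and Cenpf by -0.99. Without the 3 arrays apart the 5 differences shrank to between -0.60 and -0.45. With each array centred on its median, all 5 mitotic genes overlapped Th0.

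The other lower genes were mostly high on some Th0 arrays. Pglyrp1 (a peptidoglycan recognition protein that T cells secrete too) was at 7.66, 8.94 and 5.93 in Th0, at 5.73, 5.02 and 4.69 in Th2 and at 5.49, 5.23, 5.91 and 4.29 in Th17. Its lowest Th0 array lay only 0.020 above the highest polarised array, and the difference was -2.32 ± 0.54 (SE; limma, adjusted p = 0.794). Ms4a4c (a membrane protein of the MS4A family) was at 7.38, 4.48 and 4.08 in Th0, at 3.68, 2.85 and 2.76 in Th2 and at 2.70, 2.86, 2.80 and 2.89 in Th17. Its highest value was on Th0 replicate 1, the array highest in basophil and mast cell markers. The difference of Ms4a4c was -2.36 ± 0.57 (SE; limma, adjusted p = 0.83), and -1.32 without that array.

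Tnip3 (an inhibitor of NF-κB signalling) was even on the polarised arrays. It was at 7.02, 7.02 and 5.91 in Th0, at 5.41, 5.57 and 5.13 in Th2 and at 5.62, 5.47, 4.96 and 5.07 in Th17. All polarised arrays lay between 4.96 and 5.62, and the difference was -1.32 ± 0.25 (SE; limma, adjusted p = 0.528). It stayed at -1.27 without the 3 arrays apart. 2 lower genes serve glucose metabolism: Slc2a3 (the glucose transporter GLUT3) was at 5.88, 7.59 and 5.55 in Th0 and at 4.09 to 5.42 in the polarised cultures, and Eno3 (a muscle-type enolase) was at 7.64, 7.23 and 7.06 in Th0 and at 5.67 to 6.96. P2rx7 (a channel opened by extracellular ATP) differed by -1.09 and Lrmp (a protein of the endoplasmic reticulum membrane) by -1.17. Th2 replicate 1 was the polarised array nearest to Th0 in 9 of the 12 lower and 4 of the 12 higher genes. No lower gene differed between Th17 and Th2 at an adjusted p under 0.05 in limma, where the smallest value was 0.943.

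**Figure D3:**
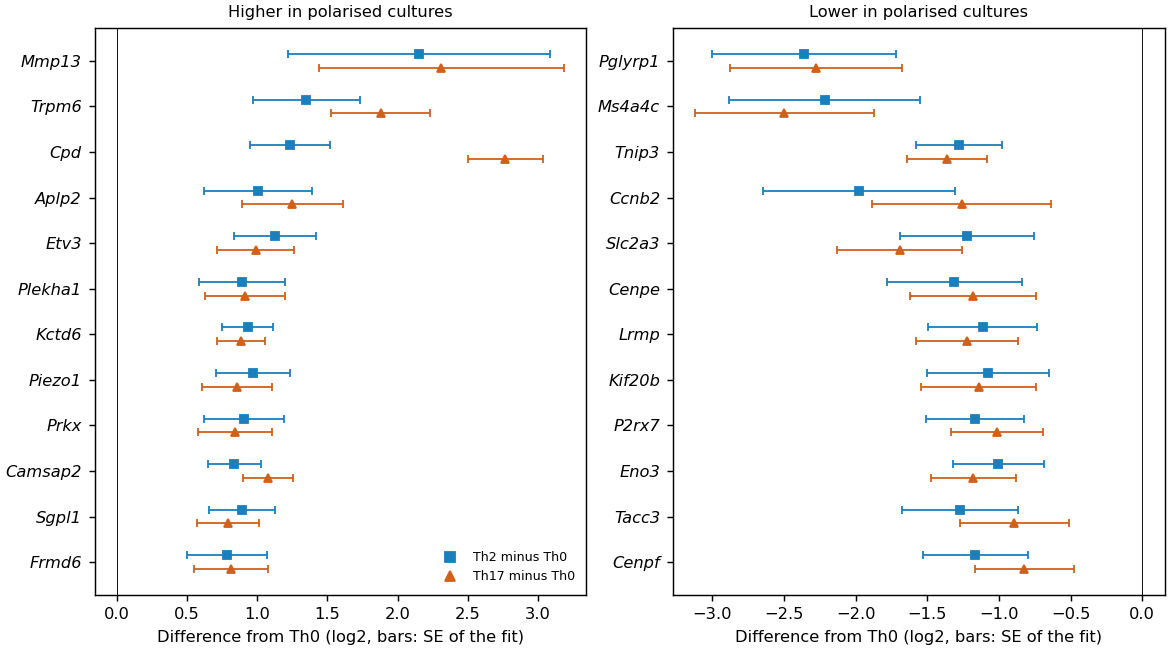
Th2 minus Th0 (squares) and Th17 minus Th0 (triangles) in log2 units with the SE of the fit, for the 12 shared higher and 12 shared lower genes. Both differences subtract the same Th0 arrays; they lie close together for most genes, and apart for Cpd, at 1.23 and 2.77.

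Rny3, a Y RNA that binds the Ro60 protein, lay outside the naming rule as a small RNA gene and is named after its value was seen. It was at 6.10, 7.03 and 6.77 in Th0, at 8.87, 8.46 and 8.18 in Th2 and at 8.10, 8.54, 9.41 and 8.72 in Th17. The groups were 1.07 apart at the nearest arrays, and the difference was 1.96 ± 0.28 (SE; limma, adjusted p = 0.186). Dpep2 (a membrane dipeptidase, also named after its value was seen) was at 4.21, 4.25 and 4.20 in Th0 and at 4.64 to 5.04 in the polarised cultures, a difference of 0.65 (limma, adjusted p = 0.429). Across all genes 32 were at least 2-fold higher in both groups (0.144%) and 46 at least 2-fold lower (0.207%). Of these 9 higher (0.0406%) and 12 lower genes (0.0541%) did not overlap. Both differences had 1 sign in 15061 genes (67.9%), above 0 in 6919 (31.2%) and below 0 in 8142 (36.7%).

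The transcript of interferon gamma itself was not lower in the polarised cultures. Ifng was at 9.07, 7.90 and 6.59 in Th0, at 8.0, 9.50 and 10.31 in Th2 and at 8.40, 9.93, 9.48 and 10.05 in Th17. Th0 replicate 1 lay among the polarised arrays, and the difference of 1.51 ± 0.58 (SE) did not pass (limma, adjusted p = 0.876). Ifngr1, the ligand-binding receptor chain, was at 7.39, 8.34 and 7.98 in Th0, at 8.10, 5.84 and 6.15 in Th2 and at 7.91, 8.24, 8.11 and 6.38 in Th17. Its 3 lowest values were those of the 3 arrays apart, and without them its difference turned from -0.73 to 0.19. Irf1 and Ptpn6 (a phosphatase that restrains cytokine receptors) differed by -0.40 and -0.61, and Ptpn6 turned to 0.17 without those arrays. Irf1 was at -0.13 without Th0 replicate 3. With Th0 replicate 1 and Th17 replicates 2 and 3 left out, Irf1 was at -0.92 and Ifngr1 at -1.24. Of 13 genes of the receptor pathway, 8 were below 0, none passed and none was free of overlap. The direction of that list was not stable: its median turned from -0.17 to 0.19, with 3 below 0, without the 3 arrays apart, and to 0.02, with 6 below 0, without Th2 replicate 3.

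Genes that interferon gamma induces lay mostly below Th0, without a call. Of 45 measured, 40 had a difference below 0, against 52.2% of all genes, and the median was -0.35, against -0.01 over all genes. For 34 both group differences were below 0 (36.7% of all genes). None passed the test, 6 had an unadjusted p under 0.05 on the lower side (2.94% of all genes) and 2 on the higher side (2.62%). The mean of the list was 6.61, 6.75 and 6.83 in Th0, 6.58, 6.19 and 6.00 in Th2 and 6.29, 6.80, 6.85 and 6.08 in Th17. Th17 replicates 2 and 3 were level with Th0, and the 3 arrays apart were lowest. Without those 3 arrays the median was -0.15 and 33 of 45 were below 0. With Th0 replicate 1 and Th17 replicates 2 and 3 left out instead, the median was -0.59. Type I interferon-induced genes, which overlap with these in function, had 21 of 29 below 0 and a median of -0.11, which became 0.05 without the 3 arrays apart. In Ifit2, which restrains translation of foreign RNA, the difference was -0.92.

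2 immunoproteasome subunits were low among the interferon gamma-induced genes. Psmb10 was at 9.05, 8.97 and 9.03 in Th0, at 8.79, 6.91 and 6.31 in Th2 and at 8.14, 8.94, 8.87 and 7.16 in Th17. It was the only 1 of the 45 listed genes that did not overlap (0.798% of all genes lay below), by 0.023. It is named for that, after its value was seen. With quantile normalization again, 0 of the list lay below Th0 without overlap. The difference of Psmb10 was -1.21 ± 0.50 (SE; limma, adjusted p = 0.876) and -0.30 without the 3 arrays apart. Psmb9 was at 9.52, 9.48 and 9.63 in Th0, at 9.19, 8.41 and 8.75 in Th2 and at 8.46, 9.30, 9.53 and 8.37 in Th17, a difference of -0.70. Cxcl10 (a chemokine for Th1 cells) differed by -0.48. On the other side, Ciita (the regulator of MHC class II genes) differed by 0.45 and Upp1 (uridine phosphorylase) by 1.20, of which 2.11 was Th17 and 0.29 Th2. In the RefSeq windows, TTCNNNGAA, the form of the STAT binding site, stood in 8 of 31 of these genes (25.8%) and in 9.15% of measured genes. The interferon-stimulated response element, searched as GAAA, any 2 bases and GAAA, stood in 10 of 31 (32.3%) and in 3.87% of measured genes. Both were searched on both strands. Among the shared higher genes 0 of 11 windows held TTCNNNGAA and 2 held the response element. Among the shared lower genes 1 of 10 windows held TTCNNNGAA and 0 held the response element.

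**Figure D4:**
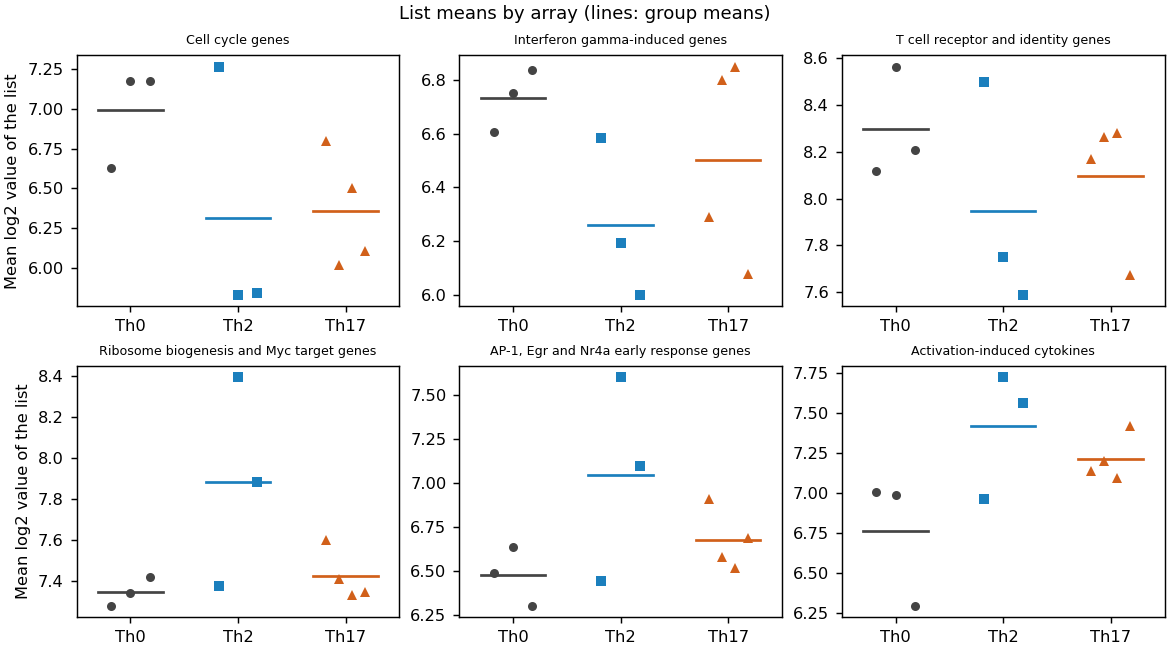
Mean log2 value of 6 gene lists on each array, with lines at the group means; the vertical scales differ and do not start at 0. Th2 replicates 2 and 3 lie far from Th2 replicate 1 in every panel, and the Th17 arrays spread less in the ribosome biogenesis list than in the cell cycle list.

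Genes of the Th1 fate did not share a direction. Of 31 measured, 15 were above and 16 below 0, none passed, and the median was -0.01, with -0.37 for Th2 and 0.43 for Th17. Tbx21, the regulator that directs Th1 cells, was at 6.43, 6.98 and 6.70 in Th0, at 5.79, 6.50 and 6.51 in Th2 and at 5.89, 6.33, 6.26 and 6.26 in Th17. Every Th17 array was below the lowest Th0 array, but Th2 replicates 2 and 3 were not, and the difference was -0.47 ± 0.19 (SE; limma, adjusted p = 0.876). Stat4, which carries the signal of interleukin 12, was at 8.54, 9.23 and 7.86 in Th0, at 7.96, 6.54 and 6.41 in Th2 and at 7.41, 7.76, 7.82 and 7.29 in Th17, a difference of -1.27 (limma, adjusted p = 0.838). Il12rb2, the signalling chain of the interleukin 12 receptor, differed by -2.21 in Th2 and -0.83 in Th17. The lectin-like receptor chains Klrc1 and Klrd1 differed by 0.89 and 0.99, and Klrd1 was higher in Th17 than in Th2 by 2.60 (limma, adjusted p = 0.018).

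The genes that define the Th2 fate were not shared and were not raised in the Th2 arrays beyond their spread. Gata3 was at 7.43, 8.14 and 7.68 in Th0, at 8.15, 7.28 and 7.14 in Th2 and at 6.04, 5.41, 5.67 and 6.21 in Th17. Th2 overlapped Th0, so the pooled difference of -1.07 came from Th17. Il4 was at 7.45, 8.82 and 8.54 in Th0, at 8.54, 9.07 and 9.32 in Th2 and at 7.86, 6.33, 6.94 and 7.54 in Th17, a pooled difference of -0.20 that turned to 0.08 without Th0 replicate 2. Of 25 Th2 programme genes 16 were below 0 and none passed. Epas1 (a hypoxia-inducible factor) and Ccr8 (a chemokine receptor) differed by -2.44 and -1.42, with Th2 at -1.53 and -0.80 and Th17 at -3.36 and -2.03. Nfil3 (a basic leucine zipper factor) differed alike in both groups, by -1.08 and -1.10.

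Of 29 Th17 programme genes 21 were above 0 and 1 passed (Il17f, higher, where 0.00902% of all genes passed). An unadjusted p under 0.05 on the higher side was found for 10 (2.62% of all genes). Their median of 0.50 (0.32 without Th2 replicate 1) was made of -0.04 for Th2 and 0.95 for Th17, so it describes 1 of the 2 groups. Il17a was at 7.55, 7.31 and 3.46 in Th0, at 5.48, 7.05 and 7.89 in Th2 and at 10.54, 10.31, 10.34 and 10.14 in Th17. The difference of 2.46 did not pass (limma, adjusted p = 0.876), and without the low Th0 replicate 3 it was 1.14. Sgk1 (a salt-sensing kinase) was at 3.77, 4.44 and 4.07 in Th0, at 4.34, 5.39 and 5.30 in Th2 and at 5.96, 6.00, 5.50 and 6.17 in Th17. Th2 replicate 1 alone overlapped Th0, and the difference of 1.37 had an adjusted p of 0.506 in limma, and 0.0278 without that array. The receptor chains Il1r1 and Il23r differed by 2.99 and 1.78 in Th17 and by 0.40 and 0.19 in Th2.

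TGF-beta response genes lay above 0 in 13 of 18, with a median of 0.30 (0.04 for Th2, 0.57 for Th17, and 0.16 for both without Th2 replicate 1). Of the media compared, only that of Th17 held added TGFβ. 7 had an unadjusted p under 0.05 on the higher side (2.62% of all genes), and 2 did not overlap (0.848% of all genes lay above), Pmepa1 and the receptor chain Tgfbr1, which differed by 0.51. Pmepa1 (a feedback inhibitor of that pathway) was at 5.41, 5.81 and 5.83 in Th0, at 6.10, 5.83 and 6.20 in Th2 and at 6.97, 6.62, 6.93 and 6.79 in Th17. The Th2 arrays were barely above Th0, and the difference was 0.75 ± 0.15 (SE; limma, adjusted p = 0.528). Skil and Smad7, also feedback inhibitors, differed by 0.68 and 0.47 in Th2 and by 1.24 and 1.23 in Th17.

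Treg-associated genes were split, 10 above and 13 below 0 of 23. Foxp3, the regulator of regulatory T cells, was at 8.25, 7.26 and 7.94 in Th0, at 7.51, 5.93 and 6.06 in Th2 and at 7.55, 6.77, 6.70 and 6.92 in Th17. Th2 replicate 1 and Th17 replicate 1 overlapped Th0, and the difference was -1.07 ± 0.35 (SE; limma, adjusted p = 0.876), or -0.56 without the 3 arrays apart. 2 costimulatory receptors of activated T cells were also low. Tnfrsf18 (GITR) differed by -1.26, or by -0.64 without those 3 arrays. Tnfrsf9 (4-1BB) was at 8.91, 9.19 and 8.66 in Th0, at 8.19, 8.50 and 8.45 in Th2 and at 7.32, 6.32, 7.20 and 8.29 in Th17. No polarised array of Tnfrsf9 reached Th0, with a difference of -1.09 (limma, adjusted p = 0.859) and of -1.35 without the 3 arrays apart. Of 32 interleukin 2 and STAT5 target genes 21 were below 0 and none passed. Their median of -0.25 became -0.07 without Th2 replicate 3 and 0.13 without the 3 arrays apart. Itm2a (a membrane protein of activated T cells, named after its value was seen) was at 6.92, 6.68 and 6.05 in Th0 and at 4.63 to 6.14 in the polarised cultures, a difference of -1.34 (limma, adjusted p = 0.528).

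Cytokines made on activation were mostly higher. Of 31 genes 24 were above 0 (47.8% of all genes) and none passed. By group, 24 were above 0 in Th2, 19 in Th17 and 15 in both. The median was 0.51 (0.46 for Th2, 0.14 for Th17), or 0.25 without the 3 arrays apart and 0.27 without Th0 replicate 3. Il2, the growth factor of activated T cells, was at 9.86, 7.71 and 5.24 in Th0, at 8.97, 11.08 and 10.56 in Th2 and at 9.41, 10.17, 9.68 and 10.17 in Th17. The Th0 arrays spread over more than 4 log2 units, and the difference of 2.43 ± 0.78 (SE) did not pass (limma, adjusted p = 0.876). It was 1.25 without Th0 replicate 3 and 3.56 without Th0 replicate 1. Tnf (tumour necrosis factor) was at 8.05, 8.08 and 8.41 in Th0, at 8.80, 10.35 and 10.35 in Th2 and at 8.54, 8.77, 8.64 and 9.09 in Th17. It did not overlap, and its difference was 1.11 ± 0.30 (SE; limma, adjusted p = 0.838, and 0.0231 without Th2 replicate 1), but 0.54 without the 3 arrays apart. Tnfsf11 (RANKL) differed by 1.62 in Th2 and 1.39 in Th17. Il21 differed by 0.13 and 3.00.

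Early response genes of the AP-1, Egr and Nr4a families, which follow T cell receptor signals within hours, were above 0 in 32 of 42 with a median of 0.39, which was 0.20 without Th2 replicate 2 and 0.045 without the 3 arrays apart. By group, 32 of the 42 were above 0 in Th2 and 27 in Th17, and 21 were above in both. None passed, and 8 had an unadjusted p under 0.05 on the higher side (2.62% of all genes). Jun (a subunit of AP-1) was at 4.33, 3.99 and 4.18 in Th0, at 4.05, 6.02 and 5.42 in Th2 and at 6.32, 6.94, 6.74 and 6.90 in Th17. Th2 replicate 1 was again within Th0. The difference of Jun was 1.78 ± 0.34 (SE; limma, adjusted p = 0.528, and 0.00571 without that array). Btg1 (an antiproliferative factor) differed by 0.94 in Th2 and 1.16 in Th17. Surface markers of activation moved unevenly: of 29 T cell activation genes 16 were above and 13 below 0, with Cd69 at 1.22 and Cd44 at 0.83.

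The cell cycle list went with the mitotic genes above. Of 46 genes 45 had a difference below 0, in both groups for all 45, and the median was -0.64 (-0.64 for Th2, -0.61 for Th17). None passed, 14 had an unadjusted p under 0.05 on the lower side (2.94% of all genes), and 3, Ccnb2, Cenpe and Cenpf, did not overlap (0.798% of all genes lay below). The 1 gene above 0 was Ccnd2 (cyclin D2, named for that), at 0.28. Without Th0 replicate 1 or without Th2 replicate 1, 12 did not overlap, while the number of all genes that lay below Th0 went from 177 to 534 and 518. Without Th2 replicate 1, 2 of the list passed, Ccnb2 and E2f8 (a repressor of the E2F family), where 24 of all 22180 genes were called lower. The mean of the list was 6.63, 7.17 and 7.18 in Th0, 7.26, 5.83 and 5.85 in Th2 and 6.80, 6.02, 6.50 and 6.11 in Th17. Th2 replicate 1 was the highest of all arrays, and Th0 replicate 1 was below Th17 replicate 1. Leaving out 1 array at a time gave medians from -0.89 to -0.51, and leaving out the 3 arrays apart gave -0.15 with 36 of 46 below 0. Bub1b (a spindle checkpoint kinase) differed by -1.04 over all arrays and by -0.47 without those 3. The part of these arrays in the difference of the list was not tested further.

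Ribosome biogenesis and Myc target genes went the other way. Of 33 genes 32 were above 0 (47.8% of all genes), none passed and 2 did not overlap (0.848% of all genes lay above). The median was 0.30 (0.51 for Th2, 0.09 for Th17). By group, 32 were above 0 in Th2 and 20 in Th17, and 20 were above in both (31.2% of all genes). Rrp9 (which processes ribosomal RNA) was at 5.64, 5.70 and 5.42 in Th0, at 6.15, 7.43 and 6.39 in Th2 and at 5.92, 6.03, 6.05 and 5.94 in Th17. Nop16 (a nucleolar protein) was at 6.48, 7.09 and 7.14 in Th0, at 7.18, 8.41 and 7.97 in Th2 and at 7.37, 7.23, 7.31 and 7.65 in Th17. In both, Th2 replicate 2 was highest. Without that array the median of the list was 0.13, and without the 3 arrays apart it was 0.06 with 20 of 33 above 0.

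Glycolysis and hypoxia genes were below 0 in 24 of 31, with a median of -0.31 (-0.40 for Th2, -0.21 for Th17) and 4 at an unadjusted p under 0.05 on the lower side (2.94% of all genes). Th0 replicate 2 was highest, with a list mean of 7.07 against 6.12 and 6.24 on the other Th0 arrays, and without it the median was -0.06. Plod2 (a collagen lysyl hydroxylase), 1 of 7 members above 0, differed by 1.72 in Th17 and by -0.31 in Th2. Of 27 cholesterol and fatty acid synthesis genes 18 were below 0, but 9 without the 3 arrays apart and 14 without Th0 replicate 2, and the median of -0.19 became 0.05 and -0.0062 in turn. Acaca (acetyl-CoA carboxylase, the first committed enzyme of fatty acid synthesis) was at 5.19, 5.43 and 5.67 in Th0, at 4.91, 4.73 and 4.61 in Th2 and at 4.75, 4.89, 5.05 and 4.56 in Th17. It did not overlap, and differed by -0.65 ± 0.15 (SE; limma, adjusted p = 0.794), nearly alike in Th2 (-0.68) and Th17 (-0.62). Of 37 amino acid and unfolded protein stress genes 26 were above 0, with a median of 0.11. By group, 27 of these stress genes were above 0 in Th2, 20 in Th17 and 18 in both. Their regulator Atf4 was at 8.83, 9.31 and 9.38 in Th0 and at 9.43 to 10.07 in the polarised cultures, a difference of 0.45 (limma, adjusted p = 0.876). Trp53inp1 (a p53 target) differed by 1.18 in Th2 and 1.28 in Th17, without a call.

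Genes of the T cell receptor and T cell identity were below 0 in 19 of 24, with a median of -0.32 that became -0.19 without Th0 replicate 2 and 0.02 without the 3 arrays apart. All 7 T cell markers were below 0 too, with a median of -0.36 that became -0.19 and 0.05 in turn. Cd4 was at 7.96, 8.76 and 8.0 in Th0, at 8.53, 7.23 and 7.09 in Th2 and at 7.98, 8.08, 8.09 and 7.15 in Th17. Its lowest values were on the 3 arrays apart. The interferon gamma-induced and receptor pathway lists were lowest on the same 3 arrays, and the cell cycle list was low on them and on Th17 replicate 2. The part of T cell content in those results was not tested. Naive and resting T cell genes went from a median of -0.04 to 0.45 without those arrays and to 0.21 without Th0 replicate 2. Cxcr6 (a homing receptor of effector T cells) was at 7.29, 7.64 and 7.40 in Th0, at 8.08, 7.58 and 8.67 in Th2 and at 8.39, 8.81, 8.75 and 9.09 in Th17, so that Th2 replicate 2 alone overlapped Th0. Its difference was 0.99 ± 0.22 (SE; limma, adjusted p = 0.751).

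Markers of other cells were low on most arrays. Basophil and mast cell markers were below 0 in 13 of 17 with a median of -0.50, which became 0.23 without Th0 replicate 1. Mcpt4 (a mast cell protease) was at 8.19 on that array and between 2.82 and 4.15 on the others. The list mean of B cell markers ranged from 3.67 to 4.31 in Th0 and from 3.49 to 4.44 in the polarised arrays. Those of monocyte, macrophage and dendritic cell markers ranged from 3.73 to 4.18 and from 3.73 to 4.14, and those of CD8 and NK cell markers from 4.04 to 4.40 and from 3.90 to 4.71. In the CD8 and NK cell list all Th17 arrays (4.44 to 4.71) lay above all Th0 arrays and all Th2 arrays (3.90 to 4.11). That list includes Klrc1 and Klrd1, described above. Neutrophil markers ranged from 3.11 to 3.57 and from 2.94 to 3.69, and erythroid cell and platelet markers from 3.90 to 5.43 and from 3.65 to 4.63. Ly6g (a neutrophil surface protein) was at 6.07, 3.23 and 3.55 in Th0 and at 2.55 to 3.22 in the polarised cultures, again with Th0 replicate 1 highest.

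**Figure D5:**
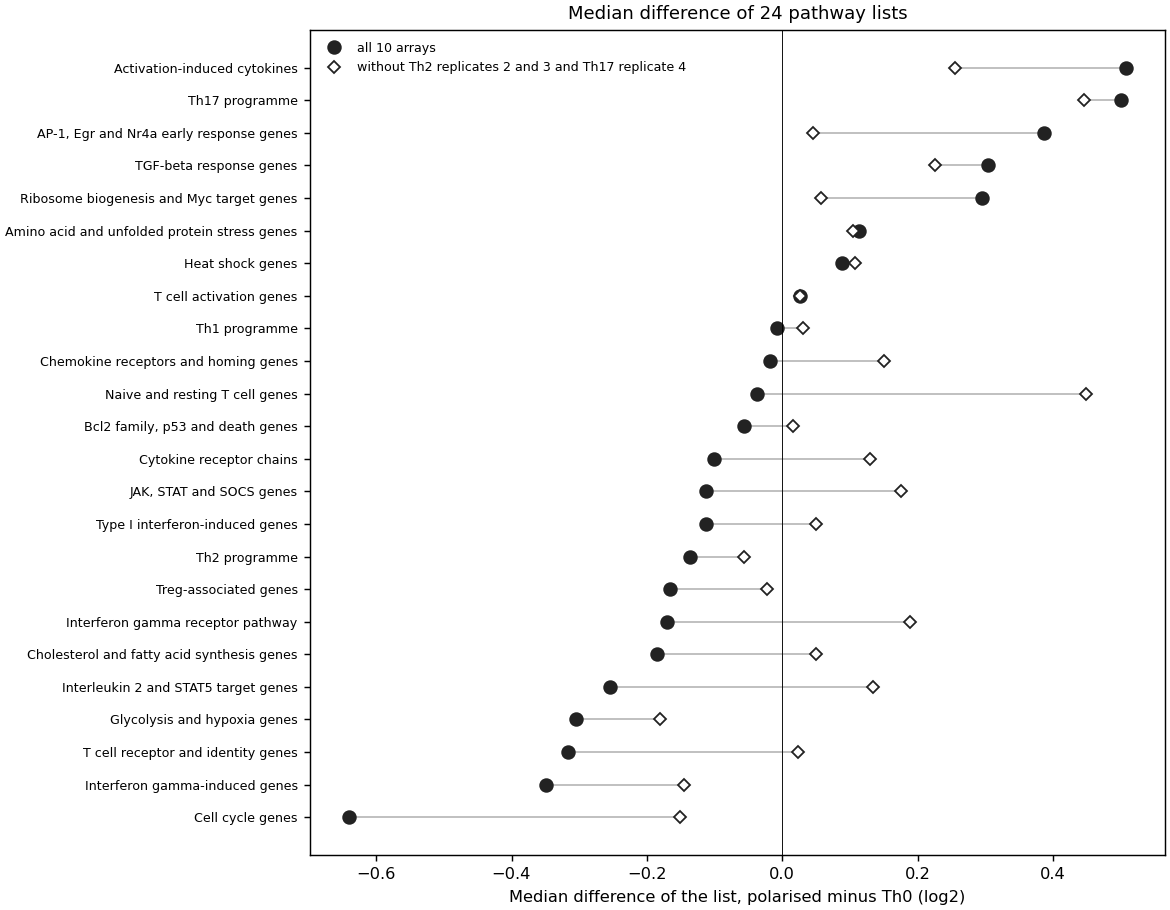
Median difference, polarised minus Th0 in log2 units, of each of 24 pathway lists over all 10 arrays (filled circles) and without the 3 arrays apart (open diamonds). In the latter, Th2 replicate 1 is the only Th2 array. Cell cycle genes lie lowest at -0.64 and move to -0.15; activation-induced cytokines lie highest at 0.51 and move to 0.25.

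Where the polarised groups were set against each other, 17 genes passed (0.0766% of those tested), among them Il17f and Klrd1, and none of the 365 genes that did not overlap was among them. Th17 minus Th0 gave 23 calls (0.104%) and Th2 minus Th0 gave 0 in limma, with 1407 genes at an unadjusted p under 0.05 (6.34%). These contrasts share the Th0 arrays with each other and with the pooled difference. A gene that missed the threshold between Th17 and Th2 is not thereby shown to be alike in both.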

How the data were processed

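The deposited values are log2 expression per probe set, made with RMA and Affymetrix Expression Console 1.3.0.187, per the submitters' processing notes. RNA was isolated with miRNeasy, treated with DNase, amplified with the Ovation PicoSL WTA System and labelled with biotin, per the labels' protocols. RMA subtracts background, sets all arrays to 1 distribution and summarises each probe set. Its quantile step hides a change in total RNA per cell, and RMA compresses differences of weakly expressed genes. The deposited arrays still differed in distribution. Over all probe sets the median was lowest on Th2 replicate 1 (3.39) and highest on Th2 replicate 3 (3.61). The interquartile range was widest on Th2 replicate 1 (2.41) and narrowest on Th2 replicate 3 (1.95).

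The table held 41345 probe sets, of which 23521 had 1 gene symbol in the probe table, 1814 had several and 16010 had none or were not listed. Of their Entrez IDs 23328 matched RefSeq (GRCm38.p6) and 0 symbols changed. For 1082 genes with several probe sets the one with the highest mean was used, which left 22180 genes. Probe sets not used numbered 17824, of which 306 did not overlap. In a fit of all 41345 probe sets, 0 were called, used or not, and the smallest adjusted p was 0.232 (limma). Cpd and Il17f were therefore not called in that fit. Some genes are not reported here.

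In limma 3.58.1 (R 4.3.3), lmFit estimated 3 group means from the 10 arrays (7 residual degrees of freedom) and eBayes moderated the variances. The contrast weighted Th2 and Th17 equally. P-values were two-sided. Errors printed after ± are the SE of the limma fit, and an SD is the spread over the arrays of a group. Promoter windows came from RefSeq, 250 bases before to 50 after the start. The procedure was tested on simulated data.

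Samples took group and replicate from their titles. For Th2 replicate 3 the description gives the number 4, and the title was followed. No label says that a number pairs the samples, so the numbers were not taken as pairs. Correlations between same-numbered arrays, of deviations from group means, ran from -0.31 to 0.30. With so few arrays they cannot exclude a shared origin. Named genes are those called, the 12 per direction described, Ifng, Ifngr1, Irf1, Tbx21, Il2, Gata3, Il4, Il17a, Il17f and Foxp3, and up to 4 members per list with the smallest p. The rule left out gene models without a name, antigen receptor segments, small RNA genes and olfactory, vomeronasal and taste receptors. Members, lists (24 of pathways, 7 of markers) and tests were chosen with earlier results of these data known. The 20 alternatives left out arrays, added a replicate block, or changed scaling, filter, probe set choice or variance model.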

Additional observations from a re-analysis of the deposited data

Results flagged for a closer look

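7 of the genes named differed between the polarised groups in limma's Th17 minus Th2 contrast, so their pooled differences average unlike parts. All 7 were higher in Th17: Il17f by 4.04, Gatm (an enzyme of creatine synthesis, named after its value was seen) by 4.02, Gpr15 (a homing receptor) by 2.73, Klrd1 by 2.60, Itgae (the integrin chain CD103) by 2.37, Plod2 by 2.02 and Nt5e (the ectoenzyme CD73) by 1.99. Adjusted p-values ran from 0.0032 for Il17f and Gatm to 0.048 for Itgae. Th2 minus Th0 lay below 0 in Gatm (-0.25), Gpr15 (-0.50), Klrd1 (-0.31), Itgae (-0.29) and Plod2 (-0.31).

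3 of 112 genes had 1 of the 4 Th17 arrays far from the other 3, where chance alone marks about 1 gene in 20. Tbx21 was at 5.89 on Th17 replicate 1, below the other Th17 arrays. Pfkm (a muscle-type phosphofructokinase) was at 2.97 on Th17 replicate 4, and Hsph1 (a heat shock protein) was at 7.70 there, above the others.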

How the results depend on the processing

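Of 20 alternatives, the count of called genes stayed at 2 with arrays centred on their medians, a mean of at least 5, the mean of a gene's probe sets, array weights, and trend with robust variances. It was 0 with a replicate block, with every polarised array weighted equally, with quantile normalization again and without the 3 arrays with most basophil transcript, and 1 without the 3 arrays apart. Leaving out 1 array at a time gave 0 to 40. With the replicate block Cpd differed by 1.93 and Il17f by 2.81 (limma, adjusted p = 0.502 for each), and same-numbered arrays were not shown to be pairs. Only Th17 had a replicate 4, so the block left that array no part in the differences. Cpd likewise differed by 1.93 with Th17 replicate 4 left out.

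The count of 365 genes without overlap ran from 451 to 1271 with 1 array left out, and was 1638 without the 3 arrays apart and 1796 without the 3 with most basophil transcript, since fewer arrays overlap less by construction. With a mean of at least 5 it was 116, since fewer genes were tested. Of 2222 values of 112 named genes under the alternatives, 2179 kept direction and side of the threshold, 27 lost the call (all Cpd or Il17f), 12 gained one and 4 reversed. Only 2 genes were called over all arrays, so few could lose a call, and these counts do not measure how stable the sizes were. In 55 of the 112 genes the difference shrank by over 1.5 times or changed sign without the 3 arrays apart. With 1 array left out Il4 ran from -0.61 to 0.077, the latter, reversed, without Th0 replicate 2. Without the 3 arrays apart, Ifngr1 (0.19), Ptpn6 (0.17) and Hspa1b (-0.074) reversed. Their causes were not tested. Neutrophil markers had no member at a mean of at least 5. Weak signals, under 5 on most arrays, limit what can be seen.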
